A study of Mus musculus with 14 samples.

Results

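Serpina3f, Serpina3g and Serpina3i are 3 neighbouring mouse genes of the Serpina3 protease inhibitor cluster. They were followed in macrophages sorted from the inflamed central nervous system. They were taken by symbol from a table of 19940 genes, chosen by the difference of their transcript levels between the donor genotypes in these same libraries. The genotype values of these 3 genes are therefore described without a test. The symbols of 6 genes in the table start with Serpina3, and the other 3, Serpina3n, Serpina3k and Serpina3c, serve as context. The sorted cells were monocyte-derived macrophages (MdMs). They came from mice at peak experimental autoimmune encephalomyelitis (EAE), an immune attack on myelin used to model multiple sclerosis. Hosts were lethally irradiated with 2 doses of 5.5 Gy given 24 h apart and received 2.5 M (M for mega) bone marrow cells of each donor genotype. The mCAT donors (CD45.2, CCR2creERT2/+ mcat lsl/wt) carry a tamoxifen-inducible Cre in the Ccr2 gene and a Cre-dependent catalase aimed at mitochondria, so recombination depends on Ccr2 expression and tamoxifen. The wt donors carry CD45.1 and neither allele is given for them. All 14 libraries, 7 mCAT and 7 wt, are labelled tamoxifen. The donor genotypes thus differ both in the alleles named and in their CD45 marker.

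Serpins are inhibitors that offer a protease a bait, the reactive centre loop, and trap the enzyme irreversibly once the loop is cut. Where humans have SERPINA3, which encodes alpha-1-antichymotrypsin, mice have an expanded cluster. Its members are less alike in that loop than elsewhere, and the loop is the stretch that sets which protease is bound. Serpina3g (also called Spi2A) is known in mouse leukocytes as an intracellular inhibitor of lysosomal cysteine cathepsins and as a target of NF-kappaB and interferon signalling. Serpina3n encodes a secreted inhibitor of granzyme B and other serine proteases and is widely used as a marker of reactive astrocytes. No protease target is assigned here to Serpina3f or Serpina3i.

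The loop-coding stretches show how alike the transcripts are and where reads can tell them apart. Transcript sequences came from GENCODE M21 on GRCm38, chromosome 12. Each stretch runs 5′ to 3′ from the hinge of the loop to the conserved serpin signature that follows it. Capitals mark bases that are not shared by all 4 genes.
Serpina3f: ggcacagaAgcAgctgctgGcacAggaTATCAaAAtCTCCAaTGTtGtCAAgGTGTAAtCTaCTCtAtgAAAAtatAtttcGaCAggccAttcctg
Serpina3g: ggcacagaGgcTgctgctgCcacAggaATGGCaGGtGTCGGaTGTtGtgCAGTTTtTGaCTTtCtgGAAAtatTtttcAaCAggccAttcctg
Serpina3i: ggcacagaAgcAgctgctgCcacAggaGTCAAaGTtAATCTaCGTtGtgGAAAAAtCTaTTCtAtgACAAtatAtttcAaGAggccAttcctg
Serpina3n: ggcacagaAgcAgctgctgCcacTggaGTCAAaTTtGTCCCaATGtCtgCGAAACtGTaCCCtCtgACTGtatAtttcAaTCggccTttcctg
Serpina3f and Serpina3g were identical at 87.8% of 1786 aligned transcript bases. Within the loop they matched at 74.2% of 93 aligned bases, against 88.6% outside it. The loop identity was 79.6% between Serpina3f and Serpina3i and 71.0% between Serpina3g and Serpina3i, while outside the loop these pairs stood at 86.6% and 87.0%. The loop was thus the less alike stretch in every pair of the 3 genes. Of all stretches of 31 bases in the longest transcript, 17.7% of those of Serpina3f, 22.2% of those of Serpina3g and 14.7% of those of Serpina3i occurred in at least 1 of the other members. Counting all annotated genes, Serpina3h among them, these shares were 27.4%, 30.1% and 26.7%. At 100 bases the shares found in the other members were 1.54%, 2.11% and 2.33%, and at 150 bases, the length of a read, 0%. How the counting program placed reads that match several members is not stated. Small values of one member beside a high value of another are uncertain.

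The promoters are shown because Serpina3f and Serpina3g followed each other closely over the libraries, while Serpina3i did so less closely. RefSeq sequences on GRCm38.p6 give the 250 bases before the annotated start; for Serpina3f, which has 2 annotated starts in that table, the first is shown. Capitals mark TTCNNNGAA, the GAS motif bound by STAT dimers, and CAGAGCACAGCTT, the longest run of bases common to the windows of all 4 genes.
Serpina3f, chr12:104214294-104214543, plus strand: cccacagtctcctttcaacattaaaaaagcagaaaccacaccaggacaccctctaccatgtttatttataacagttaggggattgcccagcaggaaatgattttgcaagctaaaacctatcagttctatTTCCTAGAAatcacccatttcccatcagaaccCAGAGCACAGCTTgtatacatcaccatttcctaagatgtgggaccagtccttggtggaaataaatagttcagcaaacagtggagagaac
Serpina3g, chr12:104235897-104236146, plus strand: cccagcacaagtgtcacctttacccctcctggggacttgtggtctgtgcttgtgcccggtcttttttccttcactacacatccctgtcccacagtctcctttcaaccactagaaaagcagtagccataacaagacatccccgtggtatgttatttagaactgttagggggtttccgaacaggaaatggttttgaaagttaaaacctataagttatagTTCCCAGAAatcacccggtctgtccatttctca
Serpina3i, chr12:104262872-104263121, plus strand: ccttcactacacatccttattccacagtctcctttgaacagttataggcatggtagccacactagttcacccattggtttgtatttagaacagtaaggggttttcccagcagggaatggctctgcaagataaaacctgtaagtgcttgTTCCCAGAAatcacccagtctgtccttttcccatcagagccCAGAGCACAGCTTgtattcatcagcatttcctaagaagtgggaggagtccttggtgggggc
Serpina3n, chr12:104406458-104406707, plus strand: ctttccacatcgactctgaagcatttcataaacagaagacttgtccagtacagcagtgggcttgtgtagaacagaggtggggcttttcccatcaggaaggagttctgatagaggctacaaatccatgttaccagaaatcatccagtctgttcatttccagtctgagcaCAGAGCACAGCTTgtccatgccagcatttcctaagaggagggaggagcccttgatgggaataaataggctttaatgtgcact
All 3 members held 1 GAS match, at base -121 in Serpina3f, -33 in Serpina3g and -102 in Serpina3i, and Serpina3n held none. Over 32851 promoter windows of 300 bases, searched on both strands, 8.30% held that motif. GGNNTTTCC, letters of the kappaB motif bound by NF-kappaB, was found at -84 in Serpina3g, -153 in Serpina3i and -170 in Serpina3n and not in the Serpina3f window; 5.82% of all windows held it. The ISRE-like motif GAAANNGAA, searched for interferon regulatory factors, was found in Serpina3f alone, at -127 on the opposite strand, where it overlaps the GAS match (8.56% of all windows). TATAAA was found on the opposite strand of Serpina3f alone, at -186 (13.6% of all windows), and AAATAAATA on its own strand at -32 (1.34%). The shared run CAGAGCACAGCTT lay at -89 in Serpina3f, -61 in Serpina3i and -82 in Serpina3n, and at +9 in Serpina3g, outside the bases shown. Of all windows 7 held it (0.0213%), those of the 4 genes it was taken from among them. Nothing is read from that share. Local alignments of the 300-base windows cover only the best-matching part of each pair. Their identity, with gaps counted, was 79.0% between Serpina3f and Serpina3g (202 aligned bases) and 76.3% between Serpina3f and Serpina3i (267). It was 80.5% between Serpina3g and Serpina3i (228), against 72.1% to 72.7% with Serpina3n (136 to 203). The aligned lengths differ, so these percentages are not directly comparable. A match describes letters, not binding.

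Values are normalised counts, obtained by undoing the log2-scale transformation of the deposited table, or differences on that log2 scale where so stated. The mCAT libraries held an estimated 27.5 to 47.0 M reads and the wt libraries 16.6 to 43.2 M, so that 1 read was worth 0.791 to 1.36 normalised counts in mCAT and 0.806 to 2.61 in wt libraries. These depths are rough, and they describe counting error only. All 15 macrophage markers were above the filter on low values, which asked for 10 normalised counts in at least 7 libraries. Cat, the mouse catalase gene, averaged 2831 ± 808 in mCAT and 2155 ± 626 in wt libraries (SD, n = 7 each; limma adjusted p = 0.878), and Ccr2, at the Cre locus, 8391 ± 2975 in mCAT and 13742 ± 5015 in wt libraries (adjusted p = 0.878). With libraries paired by code stem the adjusted p of Ccr2 was 0.00563. Library codes start with C1 in 8 libraries and with C2 in 6. A shared code stem joins 6 mCAT libraries to 6 wt libraries, while mCAT 3 and wt 1 have no partner. The labels do not say what the codes stand for, or whether libraries came from separate hosts, so p-values measure the spread between these libraries, which may in part be technical.

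Serpina3g was the most abundant of the cluster per length of transcript. Per kilobase of its longest transcript, its mean level over all libraries was 5606 normalised counts, above 96.0% of 12072 ranked genes. The level per kilobase of Serpina3f was 900.8, above 81.5% of genes. Serpina3n stood at 15.2 per kilobase and Serpina3i at 12.1, above 14.1% and 11.8% of genes. Serpina3k was above 0 in 1 library only, mCAT 7, at 11.6 normalised counts. Serpina3c reached 7.86 in mCAT 7 and 2.60 in wt 7 and was 0 elsewhere. GENCODE M21 annotates 14 Serpina3 genes and pseudogenes on chromosome 12, of which 8 have a row. The row of Serpina3h, present by identifier only, reached 13.6 in mCAT and 2.60 in wt libraries, and that of the pseudogene Serpina3d-ps 5.43 in mCAT and 3.24 in wt libraries. Only Serpina3f, Serpina3g, Serpina3i and Serpina3n passed the filter on low values.

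Serpina3f (ENSMUSG00000066363) was higher in the mCAT library in 6 of 6 code stems, as were 2.74% of the genes tested; that contrast chose the gene. Its normalised counts in mCAT libraries were 975 at the lowest (mCAT 6), 2262 at the median and 5394 at the highest (mCAT 4). In wt libraries they were 437 at the lowest (wt 6), 1362 at the median and 3099 at the highest (wt 4). The genotypes overlapped widely, and the lowest and the highest library of both genotypes carried the same code stems. The means were 2535 ± 1435 in mCAT and 1515 ± 909 in wt libraries (SD, n = 7 each), a ratio of 1.67, and the log2 difference was 0.74 (SE 0.38). Within stems the mCAT to wt ratio was 1.92, 2.23 and 1.77 in series C2 and 1.66, 1.97 and 1.74 in series C1, so that the spread within stems was far smaller than that between libraries. The mean difference within stems was 0.83 on the log2 scale (SD 0.11, n = 6). In bulk libraries such a difference can come from the number of expressing cells or from RNA per cell, which cannot be told apart.

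Serpina3g (ENSMUSG00000041481), the cathepsin inhibitor gene, had nearly the same order of libraries with a smaller ratio. It stood between 4244 (mCAT 6) and 22084 (mCAT 4), with a median of 11625, in mCAT libraries. In wt libraries it stood between 2595 (wt 6) and 15280 (wt 4), with a median of 8776. The ranges overlapped, and each stem's mCAT library was the higher one. The means were 11682 ± 5760 in mCAT and 8532 ± 4064 in wt libraries, a ratio of 1.37 and a log2 difference of 0.46 (SE 0.37). That difference was 0.21 without wt 6 and 0.28 without mCAT 4, the libraries with the lowest wt and the highest mCAT values. The 6 stems gave ratios between 1.27 and 1.64, with a mean log2 difference of 0.50 (SD 0.12, n = 6).

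Serpina3i (ENSMUSG00000079014) was near the detection limit in wt libraries and low but present in every mCAT library. Its normalised counts were 35.2, 67.4, 64.2, 108.9, 26.2, 21.7 and 21.7 in mCAT 1 to mCAT 7. They were 11.1, 0, 3.35, 5.55, 0, 2.40 and 4.33 in wt 1 to wt 7. Every mCAT library was above every wt library, which held for 15 of the 12096 genes tested (0.124%); nothing is read from that share, since the same contrast chose the gene. Serpina3i passed the filter through its 7 mCAT libraries and 1 wt library. The means were 49.3 ± 32.6 in mCAT and 3.81 ± 3.82 in wt libraries, a ratio of 12.9. The log2 difference was 0.89 (SE 0.16) on the deposited scale, which compresses low counts, and 3.61 on the log2(normalised count + 1) scale. In the 4 stems whose wt library was above 0, the mCAT to wt ratio ran from 5.01 to 20.1. Most wt values are worth only a few reads, so the size of the ratio is imprecise.

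**Figure D1:**
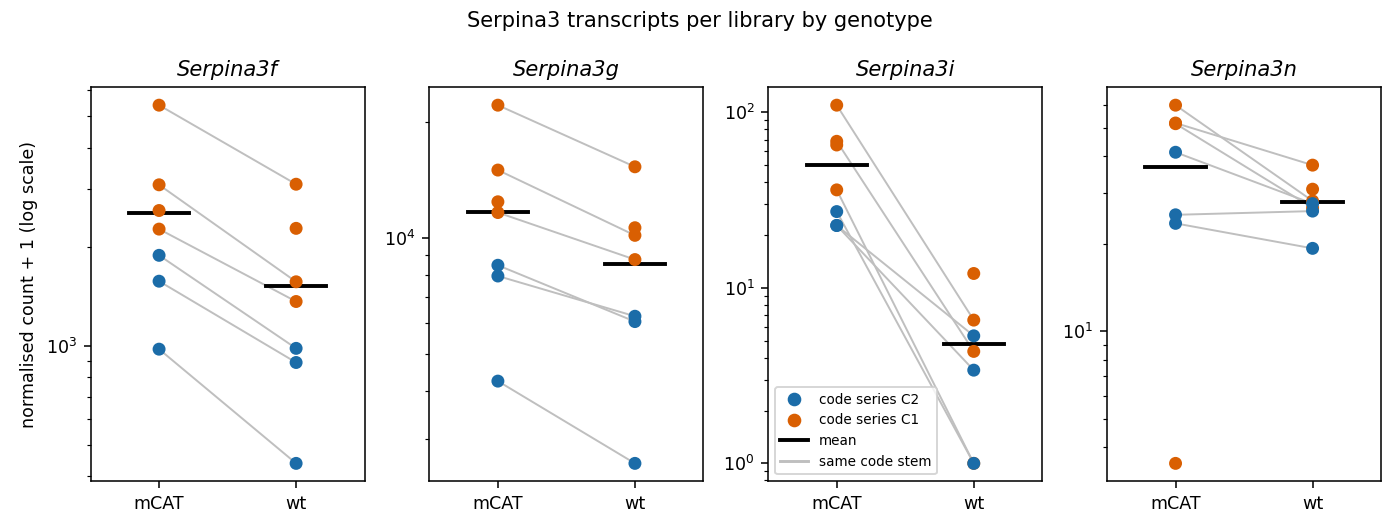
Normalised count plus 1 (log axis, own range in each panel) of Serpina3f, Serpina3g, Serpina3i and Serpina3n in the 7 mCAT and the 7 wt libraries; each point is a library, coloured by code series, bars are means and grey lines join libraries of the same code stem. All 6 lines run lower at the wt end for Serpina3f, Serpina3g and Serpina3i, and the genotypes are apart without overlap for Serpina3i.

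Serpina3n (ENSMUSG00000021091), the granzyme B inhibitor gene, was low in all libraries and did not pass the test between genotypes. It had 59.0, 50.8, 2.52, 51.1, 40.3, 24.2 and 22.5 normalised counts in mCAT 1 to mCAT 7, against 29.8, 27.1, 25.6, 36.3, 26.5, 24.9 and 18.3 in wt 1 to wt 7. The mCAT values were the more spread, and the low mCAT 3 has no partner. Its means were 35.8 ± 20.1 in mCAT and 26.9 ± 5.43 in wt libraries, a log2 difference of 0.08 (SE 0.15, limma adjusted p = 0.952). Without mCAT 3 the difference was 0.20 (limma adjusted p = 0.918), and leaving out each library in turn gave 0.02 to 0.20. With the replicate block by code stem the difference was 0.21 (SE 0.11, adjusted p = 0.595), higher in mCAT in 5 of 6 stems. For comparison, limma called 24 of 12096 genes between the genotypes (0.198%), 10 higher (0.0827%) and 14 lower (0.116%) in mCAT. With the block it called 38 (0.314%), 20 higher (0.165%) and 18 lower (0.149%).

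**Figure D2:**
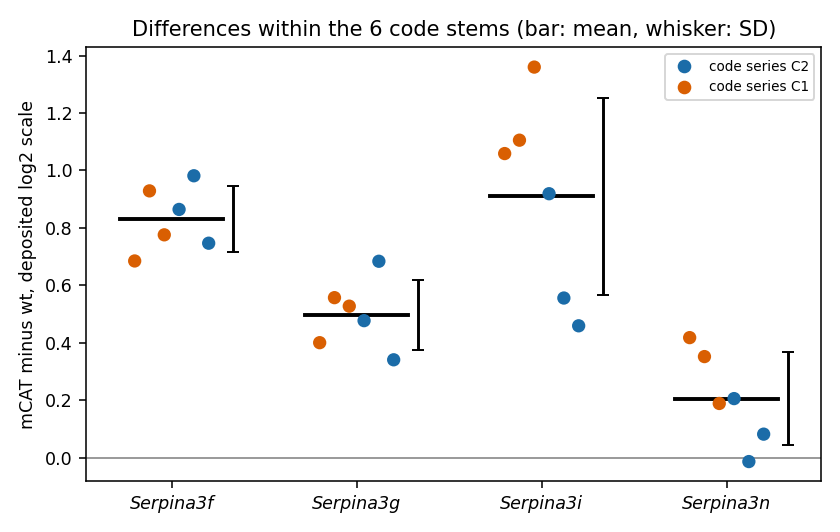
Difference between the mCAT and the wt library of each of 6 code stems on the deposited log2 scale, for the 4 Serpina3 genes above the filter; points are stems coloured by code series, black bars are means and whiskers are SDs. Serpina3f lies between 0.69 and 0.98 and Serpina3g between 0.34 and 0.68, while Serpina3i is the most spread (0.46 to 1.36, compressed by low counts) and Serpina3n reaches from -0.01 to 0.42.

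The balance among the 3 genes also differed between the genotypes, as values derived from the contrast that chose them and given without a test. Serpina3f per 100 Serpina3g normalised counts ran from 19.5 to 24.4 in mCAT and from 14.2 to 21.4 in wt libraries. The means were 21.5 ± 1.81 in mCAT and 17.1 ± 2.69 in wt libraries (SD, n = 7 each), and the mCAT library was higher in 6 of 6 stems. Serpina3i per 1000 Serpina3f ran from 13.8 to 24.9 in mCAT and from 0 to 5.48 in wt libraries, without overlap. Summed, the 3 genes held 14266 ± 7210 normalised counts in mCAT and 10050.5 ± 4951 in wt libraries. In these sums Serpina3g weighed most, and its own values set most of the range.

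**Figure D3:**
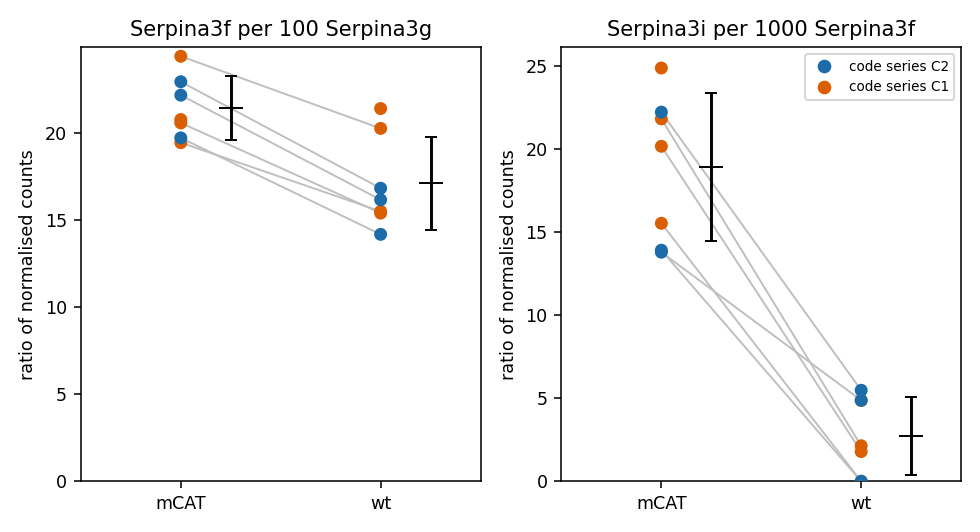
Serpina3f per 100 Serpina3g (left) and Serpina3i per 1000 Serpina3f (right), as ratios of normalised counts on axes from 0, by genotype; points are libraries coloured by code series, grey lines join code stems, and crosses with whiskers are means with SDs (n = 7 each). The mCAT libraries average 21.5 and the wt libraries 17.1 on the left, and 18.9 and 2.74 on the right.

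Serpina3f and Serpina3g were among the most variable genes from library to library. The SD within genotype was 0.79 on the log2 scale for Serpina3f, higher than that of 98.2% of the genes tested, and 0.78 for Serpina3g, higher than 98.1%. The median over all genes was 0.29, close to the 0.30 of Serpina3i and the 0.27 of Serpina3n. Within the 7 mCAT libraries the deposited values of Serpina3f and Serpina3g correlated at Pearson r = 0.986 and kept the same rank order (2-sided exact permutation p = 0.000397, the smallest that 7 libraries allow; adjusted over 6 relations 0.000794 for r and 0.00238 for rho). Within the 7 wt libraries r was 0.973 and rho 0.964 (exact permutation p = 0.000397 and 0.00278; adjusted 0.000794 and 0.00417). Without the 2 libraries farthest from the median, r was 0.981 in mCAT and 0.937 in wt libraries.

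Serpina3i correlated with the other members in mCAT libraries. With Serpina3f its r was 0.932 and its rho 0.964 (exact permutation p = 0.000397 and 0.00278, adjusted 0.000794 and 0.00417, n = 7), and with Serpina3g 0.892 and 0.964 (exact p = 0.00675 and 0.00278, adjusted 0.0101 and 0.00417). Without the 2 farthest libraries r was 0.951 with Serpina3f and 0.930 with Serpina3g. In wt libraries, where Serpina3i is near 0, r was 0.416 with Serpina3f and 0.304 with Serpina3g, and rho 0.559 and 0.685 (exact permutation p = 0.356, 0.516, 0.206 and 0.102, adjusted 0.428, 0.516, 0.206 and 0.122). Whether these relations differ between the genotypes was not tested. Of the 31-base stretches of Serpina3i, 14.7% occur in the other members, which are far more abundant. Whether reads of those members counted as Serpina3i add to its relations was not tested. The code series, described next, moves with these relations. Once the mean of each genotype and series had been taken out, r between Serpina3f and Serpina3g was 0.968 in mCAT and 0.917 in wt libraries (n = 7 each, without a test). On the same footing Serpina3i gave 0.815 with Serpina3f and 0.676 with Serpina3g in mCAT libraries, and 0.325 and 0.121 in wt libraries.

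**Figure D4:**
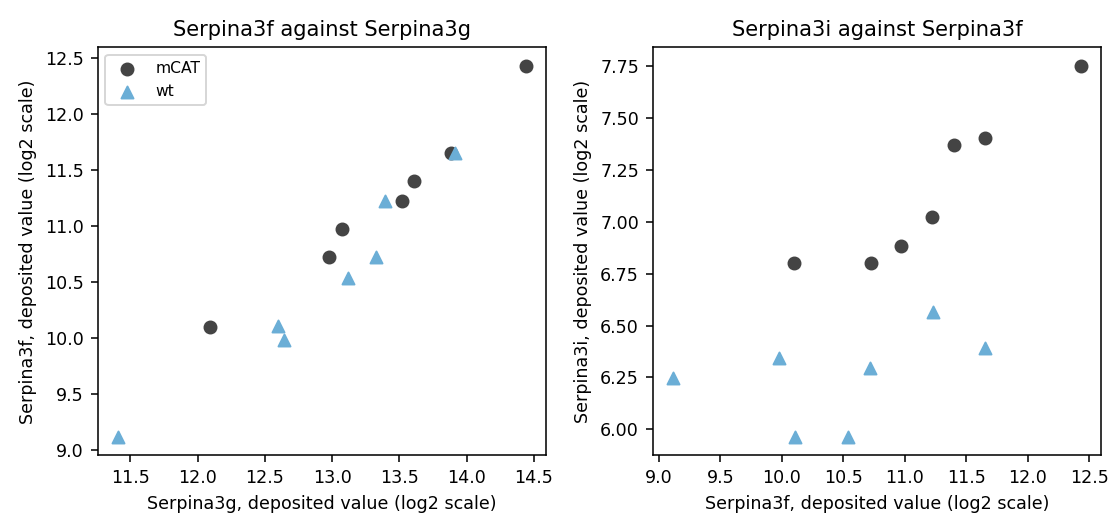
Serpina3f against Serpina3g (left) and Serpina3i against Serpina3f (right), deposited log2-scale values per library; circles are the 7 mCAT and triangles the 7 wt libraries. On the left the 2 genes rise together within each genotype (r = 0.986 in mCAT and 0.973 in wt libraries). Serpina3f per 100 Serpina3g averaged 21.5 in mCAT and 17.1 in wt libraries. On the right the mCAT libraries lie above all wt libraries (r = 0.932 in mCAT and 0.416 in wt libraries).

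Serpina3f and Serpina3g were lower in libraries of code series C2 than in those of series C1, in both genotypes. This contrast was not used to choose the genes. Serpina3f averaged 1476 ± 461 in C2 and 3330 ± 1417 in C1 mCAT libraries (SD, n = 3 and 4). In wt libraries it averaged 768 ± 290 in C2 and 2075 ± 787 in C1 (n = 3 and 4). The C2 to C1 ratio was thus 0.443 in mCAT and 0.370 in wt libraries. Within each genotype the series did not overlap, but the share of all genes that do so was not taken. Across genotypes they did overlap, with mCAT 5 of C2 at 1882 and wt 2 of C1 at 1362. With genotype as a covariate and code stem as a random block, the log2 difference was -1.18 (SE 0.23, limma adjusted p = 0.00945). Over the 8 stem means, 3 against 5, a 2-sided exact permutation test gave p = 0.0179, the smallest that 56 splits allow, and 0.0357 adjusted over the 4 Serpina3 genes.

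Serpina3g, the cathepsin inhibitor gene, averaged 6894 ± 2310 in C2 and 15272.5 ± 4763 in C1 mCAT libraries. The wt means were 4969 ± 2058 in C2 and 11204 ± 2827 in C1. Its ratios of C2 to C1 were 0.451 in mCAT and 0.444 in wt libraries, and its log2 difference was -1.17 (SE 0.22, limma adjusted p = 0.00763; exact permutation p = 0.0179 over 3 and 5 stems, adjusted 0.0357). Every C2 library of either genotype lay below every C1 library, as for 0.852% of the genes tested. Between the series limma called 2.71% of the genes, 1.11% lower and 1.6% higher in C2.

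Serpina3i averaged 23.2 ± 2.62 in C2 and 68.9 ± 30.3 in C1 mCAT libraries, and 2.24 ± 2.17 in C2 and 4.99 ± 4.65 in C1 wt libraries. Its series difference was -0.35 (SE 0.18) and did not pass the test (limma adjusted p = 0.335; exact permutation p = 0.0893 over 3 and 5 stems, adjusted 0.119). In the mCAT libraries alone the series did not overlap. The share of all genes that do so was not taken, so nothing is read from it. Serpina3n differed by -0.06 (SE 0.18, adjusted p = 0.917; exact permutation p = 0.982, which adjusting over 4 genes left at 0.982).

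**Figure D5:**
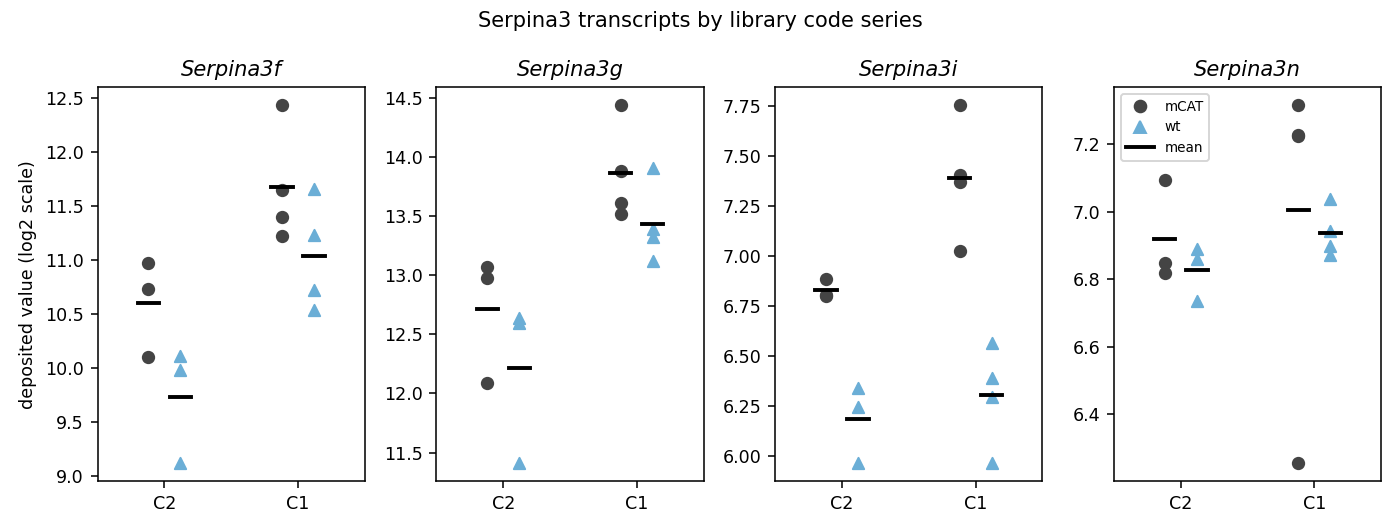
Deposited log2-scale values of the 4 Serpina3 genes by code series, C2 (3 mCAT and 3 wt libraries) left of C1 (4 and 4); circles are mCAT, triangles wt, and bars are means. Serpina3f and Serpina3g lie lower in C2 in both genotypes, with log2 differences of -1.08 and -1.15 in mCAT and -1.30 and -1.22 in wt libraries.

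The genotype values within each series are a description too, since the difference over these same libraries chose the genes. Serpina3f had a ratio of mCAT to wt means of 1.92 in C2 and 1.61 in C1, Serpina3g of 1.39 and 1.36, and Serpina3i of 10.3 and 13.8. The difference in C2 minus that in C1 was 0.22 for Serpina3f (SE 0.47), 0.07 for Serpina3g (SE 0.45) and -0.44 for Serpina3i (SE 0.27) on the deposited log2 scale, given without a test. For Serpina3i it rests on wt values near 0, where that scale compresses. Over all 12096 genes limma called 0 for such a difference, and 103 had an unadjusted p under 0.05.

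The wider serpin and protease lists showed no genotype call. Of 91 tested genes in 9 lists of serpins, proteases and genes induced by candidate signals, limma called 0, with and without the stem block. Over all genes it called 0.198%, and 0.314% with the block, so 0 of 91 is not read as a result about the lists. Of the 91 genes 3 had an unadjusted p under 0.05 (16 with the block). Over all genes 649 had an unadjusted p under 0.05, or 5.37% (1118 with the block, or 9.24%). Of the clade B serpins, which act inside cells, 8 were tested with a median log2 difference of -0.19, and 1 of 8 was above 0; the median over all genes was -0.00. Serpinb8 averaged 581 ± 143 in mCAT and 749 ± 198 in wt libraries (adjusted p = 0.878), and Serpinb10 14.1 ± 21.4 in mCAT and 54.3 ± 61.9 in wt libraries (adjusted p = 0.878). Serpinb8 was lower in mCAT in 6 of 6 stems, as were 2.63% of all genes tested, and Serpinb10 in 5. The 6 other serpins tested had a median of -0.08. Of 14 other clade A serpins 3 were in the table and 0 were tested.

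Genes of the proteases did not pass the genotype test either. The 10 lysosomal cysteine cathepsins had a median log2 difference of 0.11. Ctsb, the cathepsin B gene, averaged 312317 ± 98980 in mCAT and 245236 ± 90873 in wt libraries. It was higher in mCAT in 6 of 6 stems (limma adjusted p = 0.878, and 0.377 with the stem block). Over all genes tested 2.74% were higher and 2.63% lower in mCAT in 6 of 6 stems. Ctsw, the gene of a cathepsin of cytotoxic lymphocytes, averaged 26.1 ± 19.9 in mCAT and 70.5 ± 41.8 in wt libraries. It was lower in mCAT in 6 of 6 stems (limma adjusted p = 0.878, and 0.186 with the stem block). The 6 serine proteases of leukocytes had a median of -0.10, with Gzmb, the granzyme B gene, at 72.1 ± 93.8 in mCAT and 81.2 ± 47.6 in wt libraries (adjusted p = 0.899).

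No member of the lists of genes induced by candidate signals was called between genotypes. Over all genes limma called 0.198%, and 0.314% with the stem block. Median log2 differences were 0.05 over 21 interferon gamma induced genes, 0.06 over 18 NF-kappaB induced genes, 0.13 over 14 STAT3 and acute phase genes and 0.12 over 9 glucocorticoid induced genes. Ciita, the class II transactivator gene, averaged 2038 ± 429 in mCAT and 1599 ± 405 in wt libraries, and Relb, an NF-kappaB subunit gene, 1860 ± 229 in mCAT and 1519 ± 274 in wt libraries; both were higher in mCAT in 6 of 6 stems, with an adjusted p of 0.878. Nfkb1, another subunit gene, averaged 1431 ± 400 in mCAT and 2283 ± 1603 in wt libraries and was lower in mCAT in 6 of 6 stems (adjusted p = 0.878).

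Members of the same lists passed the test between the code series, where limma called 7 of the 91 genes higher and 3 lower in C2, against 1.6% higher and 1.11% lower over all genes. The interferon gamma list had a median of -0.66, with 20 of 21 genes below 0, while the median over all genes was -0.01. Gbp4, which encodes an interferon-induced GTPase, averaged 2173 ± 1699 in C2 and 5202 ± 1826 in C1 libraries (n = 6 and 8; log2 difference -1.45, adjusted p = 0.0352 by limma). Wars1, a tryptophan tRNA synthetase gene induced by interferon gamma, averaged 3256 ± 935 in C2 and 5756 ± 882 in C1 libraries (-0.82, limma adjusted p = 0.0174). These 2 genes and Lcn2, the lipocalin 2 gene of the acute phase list (124 ± 61.6 in C2 and 541 ± 330 in C1 libraries, limma adjusted p = 0.0409), moved in the direction of Serpina3f and Serpina3g.

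The NF-kappaB list split. Its median was -0.13, and 5 of its 18 genes were called higher in C2 and 0 lower by limma, with 7 at an unadjusted p under 0.05. Over all genes 1.6% were called higher and 1.11% lower in C2, and 17.1% had an unadjusted p under 0.05 between the series. Tnf, the gene of the cytokine TNF, averaged 21756 ± 7225 in C2 and 2960 ± 723 in C1 libraries (log2 difference 2.76, limma adjusted p = 1.91e-06), opposite to Serpina3g. The other 4 were the inhibitor genes Nfkbia (1.14), Nfkbiz (1.33) and Tnfaip3 (1.23) and the cyclooxygenase gene Ptgs2 (0.94), as log2 differences. Ctsf, a cathepsin gene, averaged 241 ± 101 in C2 and 78.2 ± 23.1 in C1 libraries, and Plau, the urokinase gene, 794 ± 186 in C2 and 384 ± 140 in C1 libraries, both called higher (limma adjusted p = 0.0150 and 0.0334). Ctsb averaged 360471 ± 76488 in C2 and 217505 ± 59463 in C1 libraries (limma adjusted p = 0.0520). The medians of the other lists were 0.28 for the cathepsins, 0.06 for the serine proteases, -0.30 for STAT3 and acute phase, -0.50 for the glucocorticoid genes, -0.17 for clade B and -0.14 for the other serpins.

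Sums of cell type markers stand beside these values. Summed over the 15 macrophage markers, C2 libraries held 3.09e+06 to 6.47e+06 and C1 libraries 1.58e+06 to 2.66e+06 normalised counts. Microglial markers summed to 45683 to 92990 in C2 and 19469 to 47260 in C1 libraries. Neutrophil markers summed to 10185 to 15573 in C2 and 10992 to 40216 in C1 libraries. By genotype the neutrophil sum was 10515 to 40216 in mCAT and 10185 to 29134 in wt libraries, and the T cell sum 3232 to 8358 in mCAT and 2866 to 6706 in wt libraries; both sums were higher in mCAT in 6 of 6 stems. The T cell sum was mostly Il7r, the interleukin 7 receptor gene, at 4309 ± 1751 in mCAT and 3496 ± 1425 in wt libraries. The CD3 genes went the other way. Cd3g averaged 20.1 ± 10.1 in mCAT and 61.1 ± 24.8 in wt libraries, and Cd3d, Cd3g, Cd247, Cd2 and Lck were lower in mCAT in 6 of 6 stems and Cd3e in 5. The median log2 difference of the 9 T cell markers tested was -0.36, with 2 above 0. The neutrophil sum was mostly Mmp8, a collagenase gene, at 11056 ± 9349 in mCAT and 7438 ± 5948 in wt libraries, while S100a8 was lower in mCAT in 5 of 6 stems. Mpo was under 10 in every library. Astrocyte markers, of interest for Serpina3n, summed to 3634 to 5885 in mCAT and 3386 to 5597 in wt libraries. Oligodendrocyte markers summed to 4983 to 7009 in mCAT and 4421 to 10579 in wt, endothelial ones to 1815 to 3823 in mCAT and 1328 to 4913 in wt, and neuronal ones to 152 to 832 in mCAT and 179 to 750 in wt libraries. In the series fit limma called 4 of 15 macrophage markers and 3 of 8 microglial markers higher in C2, against 1.6% of all genes. It called 1 of 9 astrocyte markers lower, against 1.11%. In the genotype fit limma called 0 of the markers. An unadjusted p under 0.05 was found for 8 of them: 5 of 9 T cell markers and 3 of 15 macrophage markers. Over all genes 5.37% had such a p. Of these 8, Cd2, Cd3d, Cd3e, Cd3g and Lck of the T cell list and Ccr2 had lower values in mCAT, and Csf1r and Itgam of the macrophage list higher ones. With the stem block it called Mmp8 of the neutrophil list higher and Ccr2 of the macrophage list lower in mCAT. Over all genes 0.165% were called higher and 0.149% lower with that block. The part of these cells in the Serpina3 values was not tested.

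The genes whose library-to-library pattern was most like that of Serpina3f, by Pearson correlation of deviations from the genotype means over 14 libraries, were Serpina3g (0.978), Egln3 (0.962), Psmd7 (0.962), Id1 (0.960) and Hs3st3b1 (0.949). Those most like Serpina3g were Serpina3f (0.978), P2ry14 (0.972), Agpat5 (0.967), Tnfrsf9 (0.966) and Cd1d1 (0.959). Egln3 encodes an oxygen-sensing prolyl hydroxylase, Id1 an inhibitor of helix-loop-helix factors, P2ry14 a receptor for UDP-sugars, Tnfrsf9 the costimulatory receptor 4-1BB and Cd1d1 a lipid-presenting molecule. Libraries share code stems and series, and 7.12% of the genes tested correlated above 0.7 with Serpina3f and 6.43% with Serpina3g. The genes most like Serpina3i were Eed (0.873), Rab26 (0.866), Mob4 (0.854), Pkn2 (0.848) and LTO1 (0.837), and 0.934% of genes passed 0.7. Its list holds none of the other Serpina3 genes.

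Of these, Id1, Egln3 and P2ry14 did not pass the test between the genotypes. Id1 averaged 558 ± 429 in mCAT and 826 ± 573 in wt libraries and was lower in mCAT in 6 of 6 stems (limma adjusted p = 0.895). Egln3 averaged 2942 ± 1395 in mCAT and 2704 ± 1307 in wt libraries and was higher in mCAT in 6 of 6 stems (adjusted p = 0.968), and P2ry14 4158 ± 1593 in mCAT and 4195 ± 1416 in wt libraries (adjusted p = 0.995). Of the nearest annotated genes after the cluster, Dicer1, which encodes the small-RNA processing enzyme, averaged 210 ± 42.0 in mCAT and 264 ± 139.99 in wt libraries (adjusted p = 0.912). Clmn and Syne3 had adjusted p-values of 0.989 and 0.998. Before the cluster, Serpina11, Serpina9 and Serpina12 were too low to be tested, with highest values of 13.6, 3.13 and 20.8 normalised counts.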

How the data were processed

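RNA of sorted MdMs was extracted with the RNeasy Micro kit and made into Smart-seq2 libraries from polyadenylated RNA, read as pairs of 150 bases, per the labels' protocols. The submitters' processing notes name FastQC, fastp, Salmon and the build GRCm39, without versions or annotation. The name of the table speaks of raw counts, yet the deposited values are log2-scale numbers with a common lowest value in all 14 libraries, as after a variance-stabilising transformation. Normalised counts were obtained by undoing that form, and the size of 1 read from the most frequent low values, of which 56.7% to 78.7% fell no farther than 0.15 from whole reads; depth is therefore an estimate.

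limma 3.58.1 in R 4.3.3 (statmod 1.5.0; mean-variance trend, robust moderation) was run on the deposited log2 values of 12096 genes with a normalised count of at least 10 in at least 7 libraries. Benjamini-Hochberg adjustment of the 2-sided p-values ran over these genes, with a threshold of 0.05. The genotype fit had no block, so its p-values include the spread between code stems. Genotype p-values are of that fit unless the stem block is named, which used the paired libraries only. Deviations from the group means correlated at 0.232 to 0.659 between the partners of all 6 code stems taken from the library descriptions, so the stems were taken to pair libraries. Numbers 1 to 3 of the titles joined other libraries, at -0.294, 0.158 and 0.252, and were not taken as pairs. The series fit had genotype as covariate and stem as random block (correlation 0.463). Exact permutations used scipy 1.17.1. The fits were tested on simulated data. Transcripts were aligned with MAFFT 7.526 and promoter windows, locally and in pairs, with Biopython 1.88.

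The members, the gene lists, the tests and the alternatives were chosen with earlier results of these data known. Named genes are every Serpina3 gene, list members called or among the 2 smallest p-values of a list, the 5 genes most like each member, the 3 nearest annotated genes on each side, and Cat, Ccr2 and Ptprc; not all of them are printed. Alternatives were another scale, no filter, median centring, limma without trend and robust moderation, other blocks and each library left out in turn.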

Additional observations from a re-analysis of the deposited data

How the results depend on the processing

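The genotype differences of Serpina3f, Serpina3g and Serpina3i kept their direction under every alternative run. That lends them no support, since the same contrast in these libraries chose the genes. With 1 library left out these differences ran from 0.51 to 0.93, 0.21 to 0.67 and 0.79 to 0.95 on the log2 scale. Serpina3i differed by 3.61 on the log2(normalised count + 1) scale, since the deposited scale compresses low counts by its construction. The number of genes called between genotypes was 38 with the replicate block by code stem, 25 with that by title number and 18 to 25 with 1 library left out.

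The series differences of Serpina3f and Serpina3g stayed past the threshold, from -1.25 to -1.10 (limma adjusted p up to 0.0250) and from -1.23 to -1.07 (up to 0.0221) with 1 library left out. On the log2(normalised count + 1) scale, an alternative chosen after seeing the data, Serpina3f differed by -1.29, Serpina3g by -1.19 and Serpina3i by -1.15 (limma adjusted p = 0.473 for Serpina3i). The count of genes called between series was 903 with no replicate block and 186 to 507 with 1 library left out: 214 without mCAT 3, 196 without mCAT 6, 199 without mCAT 7, 498 without wt 1, 507 without wt 5, 186 without wt 6 and 208 without wt 7. The cause was not tested. The difference of the genotype effect between series turned its sign with 1 library left out for Serpina3f (from -0.085, without wt 6, to 0.48) and Serpina3g (-0.33 to 0.39), and no gene passed that test in any of these fits. Serpina3i rests on a few reads in wt libraries, and depth limits it most there.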
